A study of Mus musculus with 9 samples.

Results

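The genes described here are 10 carriers that move amino acids and short peptides across the intestinal epithelium. They were taken by gene symbol from the table of protein-coding genes of mouse jejunum, where they are 10 of 21868 genes. Textbook knowledge of where each protein sits places 7 of them on the apical side, which faces the gut lumen: Slc15a1, Slc36a1, Slc6a20a, Slc6a19, Slc7a9, Slc3a1 and Slc1a1. The other 3, Slc43a2, Slc7a8 and Slc7a7, are basolateral and face the blood. All 10 passed the filter on low counts, so every one was tested.

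Digested protein reaches the jejunal enterocyte as free amino acids and as short peptides. Apical carriers take them up using gradients of sodium ions or protons, or by exchange for amino acids already in the cell, and cytosolic peptidases split most of the peptides. Basolateral carriers then pass amino acids to the blood, some by facilitated diffusion and some by obligatory exchange, and they can also supply the cell from the blood side.

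Bulk RNA sequencing was carried out on jejunum from 3 groups of mice, each with 3 libraries. The first group received TPN (total parenteral nutrition, in which nutrients are infused intravenously so that the gut is bypassed), the second was starved, and the third was given a sham treatment and serves as the control. In all groups the treatment lasted 24 h and a piece of jejunum 5 cm long was taken whole. Strain, sex, age, the make-up of the infusion and the details of the sham treatment were not stated in the labels. The labels call the replicates biological without saying that each is a separate mouse. If they are not, the spread that the p-values rest on is that among these samples alone and could be technical.

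Total counts ran from 7779877 to 12084278 per library. All 10 pan-epithelial markers, such as Epcam and Cdh1, had reads in every library. In sham replicate 2, 10 smooth muscle markers summed to 9541 CPM (CPM are counts divided by library size, after TMM scaling between libraries), against 1183 and 1265 CPM in the other sham libraries and 490.0 to 1407 CPM in the remaining 6. In starvation replicate 3, 7 villus tip markers summed to 73990 CPM, against 14200 and 23480 CPM in the other starvation libraries, and 7 crypt and cycling markers to 163.8 CPM, against 798.0 and 634.5 CPM. The pancreatic acinar markers summed to 16610 CPM in TPN replicate 2 and to between 16.0 and 3229 CPM elsewhere. The part of these differences in the results below was not tested, but the results are also given without sham replicate 2 and starvation replicate 3. In whole tissue, fewer cells of a type and less RNA per cell cannot be told apart.

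The 10 carriers together took 0.221%, 0.220% and 0.200% of the reads in the TPN libraries. They took 0.494%, 0.578% and 0.730% in the starvation libraries, against 0.362%, 0.320% and 0.414% in the sham libraries. Thus the 3 TPN libraries were lowest and the 3 starvation libraries highest, with no overlap between any of the groups. For 8 of the 10 genes the group means ran in the same order, starvation above sham above TPN. The exceptions were Slc7a9, for which TPN lay above sham, and Slc1a1, for which the groups overlapped in every comparison.

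Levels can be compared between genes only per length, and CPM per kilobase of exon (CPM per kb) is used for that. Slc6a19, which encodes B0AT1, the main sodium-coupled carrier of neutral amino acids in the brush border, had the highest level in every group. It averaged 92.0 ± 5.74 CPM per kb in TPN, 454 ± 299 CPM per kb in starvation and 199.6 ± 14.2 CPM per kb in sham (SD, n = 3 each), and in each group its lowest library lay above the highest library of the next gene. The next gene was Slc7a8 in TPN (69.9 ± 10.7 CPM per kb), Slc6a20a in starvation (157 ± 21.6 CPM per kb) and Slc3a1 in sham (99.2 ± 4.67 CPM per kb). In the middle of the order, neighbouring genes mostly overlapped: in starvation all neighbours from Slc6a20a at 157 CPM per kb down to Slc7a9 at 45.2 CPM per kb did, and in sham all from Slc3a1 down to Slc36a1 at 59.9 CPM per kb. Slc1a1, the glutamate and aspartate carrier EAAT3, was lowest throughout, at 2.78 ± 0.033 CPM per kb in TPN, 2.98 ± 1.51 CPM per kb in starvation and 3.03 ± 1.42 CPM per kb in sham.

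**Figure D1:**
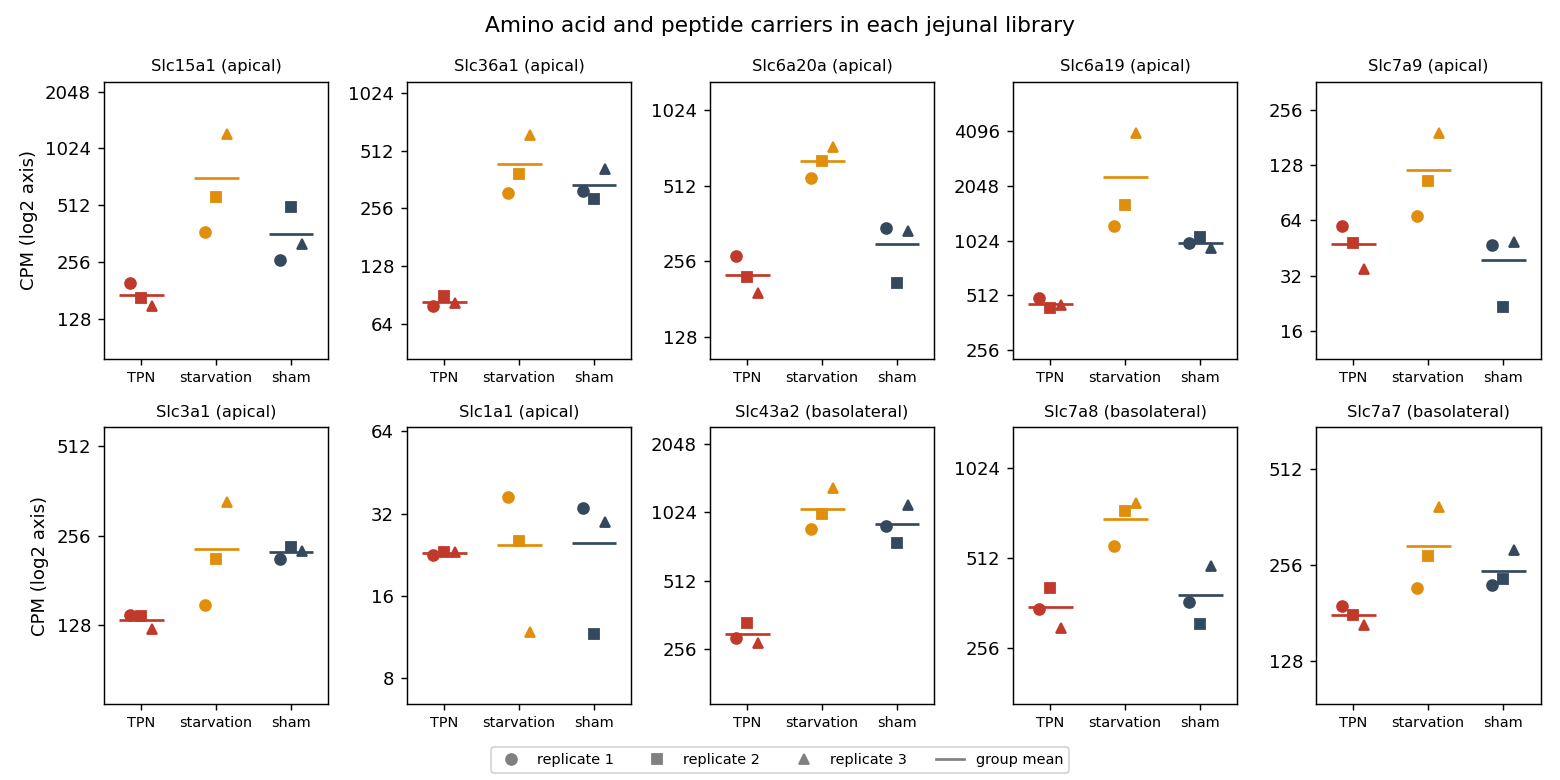
Level of each of the 10 carriers in every library, in CPM on a log2 axis, with TPN, starvation and sham from left to right in each panel; the shape of a point gives the replicate number and the line the group mean. In the Slc36a1 and Slc43a2 panels the 3 TPN libraries (79.4 to 89.5 CPM and 271 to 334 CPM) lie far below the other 6, and in the Slc1a1 panel the 3 groups overlap.

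The clearest change in the set was shared by one gene from each side of the cell. Slc36a1 encodes PAT1, a proton-coupled carrier of small neutral amino acids such as proline, glycine and alanine that is known at the apical membrane of human intestinal cells and also in lysosomes. Slc43a2 encodes LAT4, a facilitator through which branched-chain amino acids, phenylalanine and methionine leave across the basolateral membrane. Both were lower in TPN than in sham and in starvation, 3.06-fold to 5.23-fold, and in starvation neither passed the test against sham. In annotation GENCODE M21 on build GRCm38, Slc36a1 is at chr11:55204350-55236330 and Slc43a2 at chr11:75531694-75577575, both on the plus strand.

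Slc36a1 had 79.4, 89.5 and 81.8 CPM in the TPN libraries, 309, 388 and 616 CPM in the starvation libraries and 314, 288 and 409 CPM in the sham libraries. All TPN libraries lay below all others, and starvation and sham overlapped. By edgeR's quasi-likelihood test with Benjamini-Hochberg adjustment over 14668 genes, Slc36a1 was lower in TPN than in sham, with a log2 fold change of -2.01 ± 0.27 (SE), which is 4.03-fold lower, and an adjusted p of 0.00374. It was 5.23-fold lower in TPN than in starvation (log2 fold change -2.39 ± 0.27, adjusted p 0.00219, same test). Starvation against sham gave 0.38 ± 0.26, with a 95% interval from -0.20 to 0.95 and an adjusted p of 0.40 in the edgeR test, so the interval leaves room for a rise of almost 1 log2 unit.

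Slc43a2 had 287, 334 and 271 CPM in the TPN libraries, 863, 1007 and 1311 CPM in the starvation libraries and 889.9, 747 and 1095 CPM in the sham libraries. As for Slc36a1, the TPN libraries stood below the other 6, which overlapped with each other. In the edgeR test Slc43a2 was 3.06-fold lower in TPN than in sham (log2 fold change -1.61 ± 0.23, adjusted p 0.00477) and 3.56-fold lower in TPN than in starvation (-1.83 ± 0.23, adjusted p 0.00367). Starvation against sham gave 0.22 ± 0.22, with an interval from -0.27 to 0.71 and an adjusted p of 0.578. These calls for Slc36a1 and Slc43a2, both in TPN against sham and in TPN against starvation, were kept in 19 of 19 alternative analyses. Part of the Slc43a2 exons, 9.18% of their length, overlaps the antisense transcript Gm45606, and it is not known whether the counting used strand.

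Across the 9 libraries Slc36a1 and Slc43a2 were each other's closest match. Among 10151 other genes with a mean of at least 3 log2 CPM, the highest Pearson correlation of log2 CPM with Slc36a1 was that of Slc43a2, at 0.995, and the reverse held as well. The value describes 9 libraries in which the 3 TPN libraries form a separate low cluster, and the libraries share whatever differs in depth and cell make-up between them. After Slc43a2, the genes most like Slc36a1 were Vav2 (0.992) and Amdhd2 (0.991), and after Slc36a1, those most like Slc43a2 were Aco1 (0.988) and Slc52a2 (0.985).

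Because these carriers moved together, the sequences around their start sites are shown, 250 bases before and 30 bases after the start on the coding strand, from RefSeq on GRCm38.p6. Capitals mark matches to the motifs that were searched for, on both strands, in the window of each gene.
Slc36a1 (chr11:55204090-55204369, plus strand): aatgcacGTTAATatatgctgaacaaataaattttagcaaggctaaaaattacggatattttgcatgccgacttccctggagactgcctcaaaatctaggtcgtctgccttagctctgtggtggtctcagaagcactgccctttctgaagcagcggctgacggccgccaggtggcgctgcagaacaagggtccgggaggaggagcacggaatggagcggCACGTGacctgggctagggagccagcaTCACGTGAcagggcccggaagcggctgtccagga
Slc43a2 (chr11:75531444-75531723, plus strand): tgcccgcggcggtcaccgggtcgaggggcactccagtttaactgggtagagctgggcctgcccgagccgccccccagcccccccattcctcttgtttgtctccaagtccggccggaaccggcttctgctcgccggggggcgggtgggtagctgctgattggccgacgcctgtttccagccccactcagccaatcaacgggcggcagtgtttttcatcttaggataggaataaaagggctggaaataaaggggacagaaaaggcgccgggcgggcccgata
The Slc36a1 window holds GTTAAT, part of the palindromic site of HNF1, at -243 to -238 and the E-box CACGTG at -31 to -26. It also holds TCACGTGA, a form of the E-box that contains CACGTG and is known from lysosomal genes, at -4 to 4 across the start. Of 32851 windows of 280 bases, 6.85% held GTTAAT, 6.79% held CACGTG and 0.931% held TCACGTGA. None of the motifs searched was found in the Slc43a2 window, which says only that these letters are absent from that stretch. The other motifs were CAAAGTCCA (HNF4, in 0.457% of windows), AGATAA (10.7%, known as a site of factors of the GATA family), TTGCATCA (ATF4, 0.877%) and a palindromic motif of the glucocorticoid receptor (0.435%). Windows were found for all 10 carriers. CAAAGTCCA was present in the Slc3a1 window and GTTAAT in those of Slc6a20a and Slc3a1 and in 1 of the windows of Slc7a7, whose windows also held TTGCATCA. AGATAA was present in windows of Slc7a9, Slc7a7 and Slc3a1. A match is a description of the letters and not evidence of binding.

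**Figure D2:**
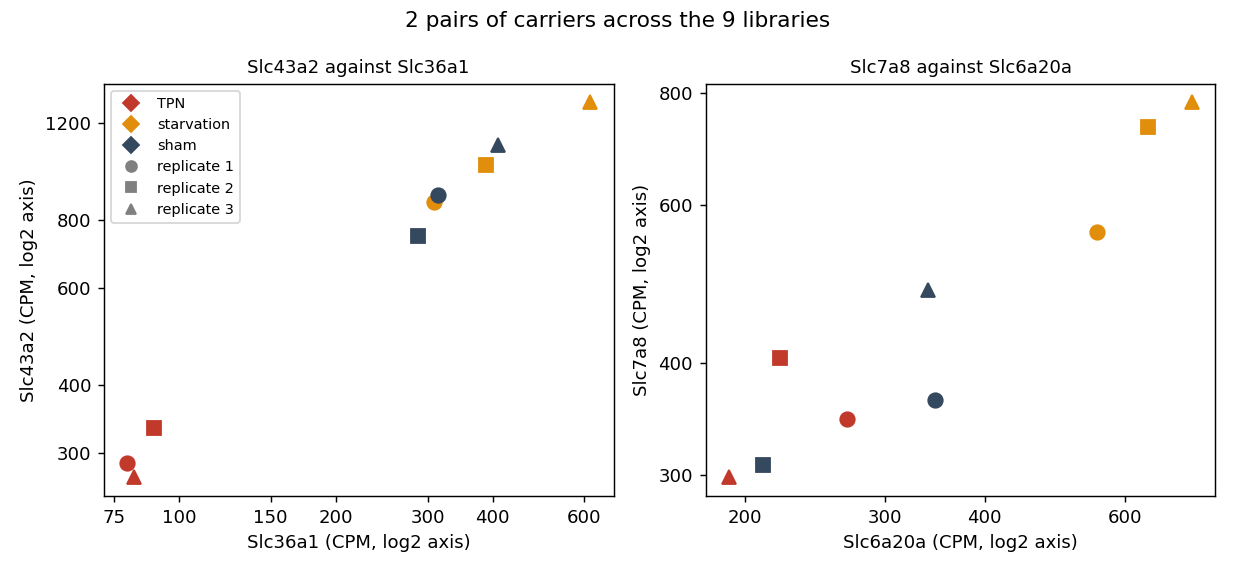
Each point is 1 library, placed by the level of an apical carrier on the horizontal axis and a basolateral carrier on the vertical axis, both in CPM on log2 axes; colour gives the group and shape the replicate number. On the left the 3 TPN libraries lie apart at the lower end, with Slc36a1 at 79.4 to 89.5 CPM, while on the right the 3 starvation libraries lie apart at the upper end, with Slc6a20a at 553 to 729 CPM.

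Among the other apical carriers, PEPT1 and B0AT1 had their highest levels in starvation and their lowest in TPN. Slc15a1 (chr14:121459621-121505252, minus strand) encodes PEPT1, the proton-coupled carrier through which the intestine absorbs dipeptides and tripeptides. It had 198, 164 and 149 CPM in the TPN libraries, 369, 563 and 1214 CPM in the starvation libraries and 261, 502 and 318 CPM in the sham libraries. The TPN libraries lay below both other groups, and starvation and sham overlapped. In the edgeR test Slc15a1 was 4.20-fold lower in TPN than in starvation (log2 fold change -2.07 ± 0.43, adjusted p 0.024). TPN against sham gave -1.08 ± 0.41 with an adjusted p of 0.131, and starvation against sham 0.99 ± 0.41 with an adjusted p of 0.188, so neither passed the edgeR threshold. With a covariate for smooth muscle markers, TPN against sham gave -0.48 (edgeR adjusted p 0.632), and without starvation replicate 3, starvation against sham gave 0.35.

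Slc6a19 (chr13:73679745-73704865, minus strand) had 493, 438 and 452 CPM in the TPN libraries, 1227, 1609 and 3989 CPM in the starvation libraries and 989.9, 1074 and 933 CPM in the sham libraries. The 3 groups did not overlap at all, but starvation replicate 3 held 3.25 times the level of starvation replicate 1. Slc6a19 was 4.94-fold lower in TPN than in starvation in the edgeR test (log2 fold change -2.30 ± 0.39, adjusted p 0.013). TPN against sham gave -1.12 ± 0.38 (adjusted p 0.0986) and starvation against sham 1.19 ± 0.38 (adjusted p 0.112), short of the edgeR threshold. Without sham replicate 2 and starvation replicate 3, both passed it: -1.02 ± 0.12 in TPN against sham (adjusted p 0.000392) and 0.56 ± 0.13 in starvation against sham (adjusted p 0.0197). Most alternatives did not call them. TPN against sham was called in 5 of 19 and in 1 of the 9 fits that left out 1 library. Starvation against sham was called in 3 of 19 and in 0 of these 9. The calls in TPN against starvation for Slc15a1 and Slc6a19 were lost when any 1 of the TPN libraries was left out. Of 19 alternatives, 14 kept the call of Slc15a1 and 16 that of Slc6a19. Over all alternatives the log2 fold change of Slc15a1 ran from -2.38 to -1.40, with a highest edgeR adjusted p of 0.122, and that of Slc6a19 from -2.60 to -1.57, with a highest adjusted p of 0.0806, and for both the smallest change was that without starvation replicate 3.

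Slc6a20a (chr9:123634770-123678885, minus strand) encodes SIT1, a sodium-coupled carrier of proline and other imino acids, and was the one carrier that rose in starvation by the test. It had 268, 221 and 191 CPM in the TPN libraries, 553, 642 and 729 CPM in the starvation libraries and 346, 211 and 339.8 CPM in the sham libraries. All starvation libraries were above all others, and TPN and sham overlapped. In the edgeR test Slc6a20a was 2.14-fold higher in starvation than in sham (log2 fold change 1.10 ± 0.24, adjusted p 0.0393) and 2.83-fold lower in TPN than in starvation (-1.50 ± 0.24, adjusted p 0.0104). TPN against sham gave -0.40 ± 0.23 (adjusted p 0.304). The rise in starvation was called in 9 of 19 alternatives, with log2 fold changes from 0.80 to 1.46 and adjusted p from 0.000389 to 0.145, and in 2 of the 9 fits that left out 1 library, those without starvation replicate 1 or 3. The fall in TPN against starvation was lost without TPN replicate 2 and without TPN replicate 3. Reads from the similar neighbouring gene Slc6a20b could be shared with Slc6a20a, depending on how the authors counted them, and 13.8% of the Slc6a20a exon length overlaps the antisense transcript Gm17120. Slc6a20b had 95.9, 88.6 and 90.1 CPM in TPN, 113, 113 and 132 CPM in starvation and 124, 129.8 and 131 CPM in sham, a different order from that of Slc6a20a.

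The exchanger b0,+AT, which takes up cystine and basic amino acids, is a dimer of the light chain encoded by Slc7a9 and the heavy chain rBAT encoded by Slc3a1, and the levels of these subunits did not run in parallel. Slc7a9 (chr7:35448796-35466036, plus strand) had 59.4, 48.0 and 35.0 CPM in the TPN libraries, 68.1, 105 and 190.3 CPM in the starvation libraries and 47.2, 21.6 and 48.9 CPM in the sham libraries. The starvation libraries were above all others, and TPN and sham overlapped. Starvation against sham gave a log2 fold change of 1.62 ± 0.41 with an adjusted p of 0.0628 in the edgeR test, and TPN against starvation -1.35 ± 0.41 with an adjusted p of 0.0879. TPN against sham gave 0.27 ± 0.41 (adjusted p 0.70), the only positive value among the 10 carriers in that comparison.

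Slc3a1 (chr17:85028376-85064236, plus strand) had 138, 137 and 124 CPM in the TPN libraries, 149, 213 and 331 CPM in the starvation libraries and 214, 235 and 227 CPM in the sham libraries. The TPN libraries were below both other groups, and the starvation libraries spread on either side of the narrow sham range. TPN against sham gave -0.76 ± 0.25 (adjusted p 0.0925), starvation against sham 0.04 ± 0.25 (adjusted p 0.951) and TPN against starvation -0.80 ± 0.25 (adjusted p 0.10), none past the edgeR threshold. Slc3a1 shares 26.5% of its exon length with Prepl on the opposite strand. Prepl was also the gene whose profile was most like that of Slc3a1 (Pearson r 0.996 over 9 libraries), and without strand the reads of these genes in the shared stretch could not be separated.

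Relative to its heavy chain, the light chain was lowest in sham. The ratio of Slc7a9 to Slc3a1, in CPM per kb, was 0.364, 0.298 and 0.239 in the TPN libraries, 0.387, 0.417 and 0.488 in the starvation libraries and 0.187, 0.0778 and 0.183 in the sham libraries. The 3 groups did not overlap, but with 3 libraries against 3 the smallest p an exact permutation test can give is 0.10, and no test was made. Slc7a15, which in mouse encodes an aromatic-preferring light chain known to pair with rBAT, was higher in starvation than in sham by a log2 fold change of 1.40 ± 0.30 (edgeR adjusted p 0.039) and lower in TPN than in starvation (-1.40 ± 0.30, edgeR adjusted p 0.0277). With Slc7a15 added to Slc7a9, the ratio to Slc3a1 was 1.43 ± 0.14 in TPN, 2.13 ± 0.188 in starvation and 0.825 ± 0.0884 in sham (SD, n = 3 each).

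Slc1a1 (chr19:28835049-28913960, plus strand) was the one carrier whose groups overlapped in every comparison. It had 22.7, 23.1 and 23.1 CPM in the TPN libraries, 36.7, 25.3 and 11.8 CPM in the starvation libraries and 33.6, 11.6 and 29.9 CPM in the sham libraries. The low values were in starvation replicate 3 and sham replicate 2, the libraries that stand apart by their tissue markers. The log2 fold changes were -0.13 ± 0.43 in TPN against sham, -0.02 ± 0.43 in starvation against sham and -0.10 ± 0.43 in TPN against starvation, with 95% intervals that reach from -1.09 to 0.95, and the lowest edgeR adjusted p was 0.88. At this spread a change of up to about 1 log2 unit in either direction was not detectable. Without sham replicate 2 and starvation replicate 3, TPN against sham gave -0.42 ± 0.15 (edgeR adjusted p 0.0636). In the same fit TPN against starvation gave -0.40 ± 0.15 (edgeR adjusted p 0.0943) and starvation against sham -0.02 ± 0.17 (edgeR adjusted p 0.939). None of these passed the threshold. Exons of 4430402I18Rik on the opposite strand cover 31.9% of the Slc1a1 exon length. The genes most like Slc1a1 were Trmt2a (Pearson r 0.978), the crypt stem cell marker Lgr5 (0.976) and Hpse (0.976), and its correlation with the other 9 carriers ran from -0.52 to 0.07 over the 9 libraries.

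On the basolateral side, the exchangers that work as dimers with the heavy chain CD98 (gene Slc3a2) differed less than Slc43a2 did between TPN and both other groups, while in starvation against sham the log2 fold change of Slc7a8 (0.85) was above that of Slc43a2 (0.22). Slc7a8 (chr14:54722209-54781946, minus strand) encodes LAT2, an exchanger of neutral amino acids. It had 346, 405 and 298 CPM in the TPN libraries, 559, 733 and 781 CPM in the starvation libraries and 364, 307 and 482 CPM in the sham libraries. The starvation libraries were above all others, and TPN and sham overlapped. Slc7a8 was 1.98-fold lower in TPN than in starvation in the edgeR test (log2 fold change -0.98 ± 0.23, adjusted p 0.0373), a call that was kept in 10 of 19 alternatives and in 3 of the 9 fits that left out 1 library, those without starvation replicate 1, sham replicate 2 or sham replicate 3. Starvation against sham gave 0.85 ± 0.23 (adjusted p 0.0718) and TPN against sham -0.14 ± 0.23 (adjusted p 0.732), neither of them past the edgeR threshold. Across the libraries Slc7a8 went more with Slc6a20a (Pearson r 0.94) than with the basolateral carriers Slc7a7 (0.78) and Slc43a2 (0.69).

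Slc7a7 (chr14:54369442-54417780, minus strand) encodes y+LAT1, which exports basic amino acids in exchange for neutral ones. It had 190.0, 178 and 166 CPM in the TPN libraries, 217, 273 and 391 CPM in the starvation libraries and 221, 231 and 285 CPM in the sham libraries. The TPN libraries lay below both other groups, which overlapped. None of the differences passed the edgeR threshold: TPN against sham gave -0.46 ± 0.22 (adjusted p 0.216), starvation against sham 0.26 ± 0.22 (adjusted p 0.51) and TPN against starvation -0.72 ± 0.22 (adjusted p 0.0921). The gene whose profile was most like that of Slc7a7 was its own heavy chain, Slc3a2 (Pearson r 0.986 over 9 libraries). The summed level of Slc7a7 and Slc7a8 relative to Slc3a2, in CPM per kb, was 1.92, 1.98 and 1.97 in the TPN libraries, 1.99, 2.12 and 1.75 in the starvation libraries and 1.66, 1.59 and 1.60 in the sham libraries. Sham was below both other groups, and TPN and starvation overlapped.

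In TPN against sham, 0 of the 10 carriers rose and 2 fell, at an adjusted p under 0.05, where 8.60% of all tested genes were called, 3.48% higher and 5.12% lower. The log2 fold change was below 0 for 9 of 10, with a median of -0.61 against -0.02 for all genes. For 6 carriers the TPN libraries lay wholly below sham, as they did for 21.4% of all genes, while 21.3% of genes lay wholly above. The 9 genes of microvillus structure, such as the actin bundler villin, had a median of -0.83 in this comparison, with 2 called lower, and their summed level was 4616, 4191 and 4153 CPM in TPN against 6983, 7504 and 7509 CPM in sham. The 10 pan-epithelial markers had a median of -0.05, with 0 called by edgeR, 1 at an unadjusted p under 0.05 and 0 called by DESeq2. The 7 villus tip markers had a median of -0.72, all 7 below 0, with 0 called by edgeR, 2 lower at an unadjusted p under 0.05 and 0 called by DESeq2. Whether the level of microvillus or villus tip genes has a part in the carriers' difference was not tested. Leaving out starvation replicate 3 alone, which enters this comparison only through the shared spread, gave 5 carriers, where 11.4% of all genes were called lower. Without sham replicate 2 and starvation replicate 3, 7 carriers were called lower, where 14.8% of genes were: Slc15a1, Slc36a1, Slc6a20a, Slc6a19, Slc3a1, Slc43a2 and Slc7a7.

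In starvation against sham, 1 of the 10 carriers rose and 0 fell, where 3.69% of all genes were called, 2.55% higher and 1.14% lower. The log2 fold change was above 0 for 9 of 10, with a median of 0.61 against -0.01 for all genes. Starvation lay wholly above sham for 4 carriers, as for 13.9% of all genes, and wholly below for none, as for 11.2% of all genes: the 4 were Slc6a20a, Slc6a19, Slc7a9 and Slc7a8. The starvation libraries were not alike. Replicate 3 was the highest of its group for 9 of the 10 carriers and the lowest for Slc1a1, and replicate 1 was the lowest for 9. Villus tip markers ran the same way, at a mean of 8.17, 8.83 and 10.56 log2 CPM in starvation replicates 1, 2 and 3, against 8.91, 9.77 and 8.75 log2 CPM in sham, and their part in the result was not tested. Without sham replicate 2 and starvation replicate 3, 4 carriers were called higher, where 10.9% of genes were: Slc15a1 (log2 fold change 0.69), Slc6a20a (0.80), Slc6a19 (0.56) and Slc7a9 (0.84). With the libraries scaled to the pan-epithelial markers in place of all genes, the median of all genes moved by 0.38 and 8 carriers were called higher, where 15.3% of genes were. Before that scaling these markers had a median of -0.35 in this comparison, with 9 of 10 below 0. None was called by edgeR or DESeq2, and 3 were lower at an unadjusted edgeR p under 0.05. They summed to 4406, 5247 and 8757 CPM in starvation against 7065, 8131 and 7523 CPM in sham.

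In TPN against starvation, 0 of the 10 carriers rose and 6 fell, where 5.84% of all genes were called, 1.94% higher and 3.90% lower. These were Slc15a1, Slc36a1, Slc6a20a and Slc6a19 on the apical side and Slc43a2 and Slc7a8 on the basolateral side. The log2 fold change was below 0 for all 10, with a median of -1.42 against -0.03 for all genes. The microvillus genes had a median of -0.86 in this comparison, with 1 of 9 called lower, and summed to 4616, 4191 and 4153 CPM in TPN against 4853, 6148 and 11380 CPM in starvation. The villus tip markers had a median of -1.06, all 7 below 0, and the pan-epithelial markers one of 0.40. For both lists edgeR called 0, at an unadjusted p under 0.05 there were 4 villus tip markers (lower) and 2 pan-epithelial markers (higher), and DESeq2 called 0 and 1 of them. The part of these markers in the carriers' difference was not tested. For 9 carriers, all but Slc1a1, the TPN libraries lay wholly below the starvation libraries, as they did for 18.3% of all genes, with 15.3% wholly above. The count was 3, 2 and 2 without TPN replicates 1, 2 and 3, where 0.744%, 0.602% and 0.543% of all genes were called lower. Without sham replicate 2 and starvation replicate 3, 7 were called, where 11.5% of genes were, the same 6 and Slc7a9. The 3 comparisons share libraries with each other and are not independent.

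**Figure D3:**
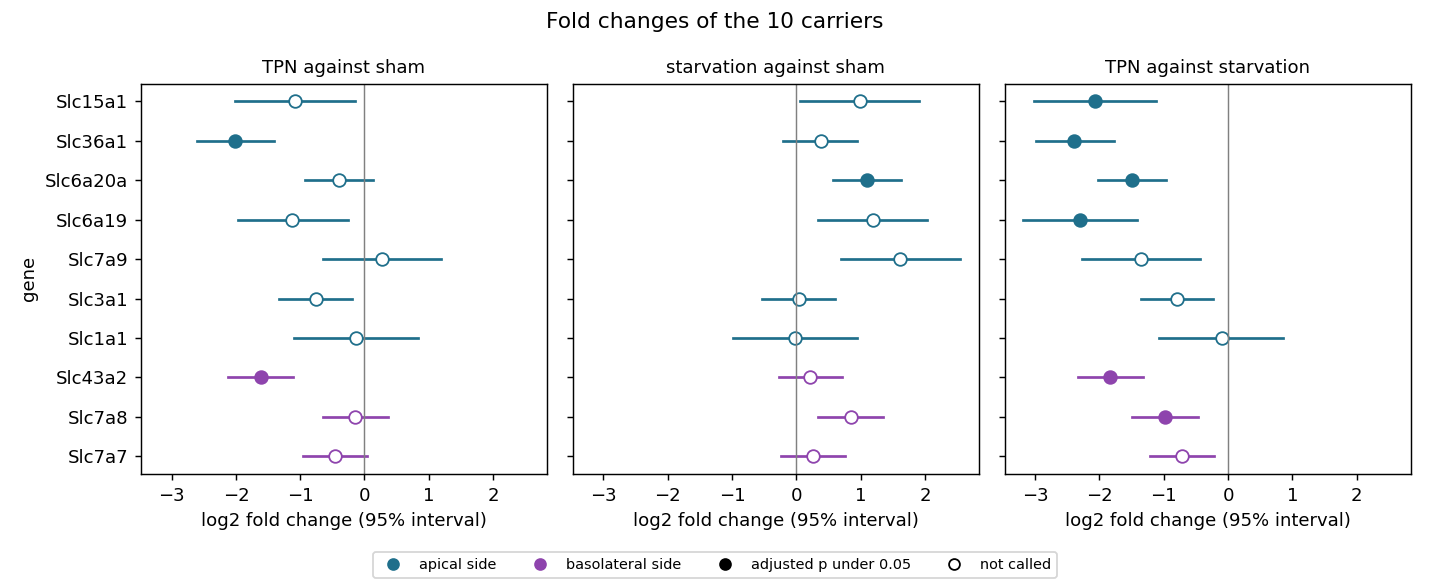
Log2 fold change of each carrier with its 95% interval, in TPN against sham, starvation against sham and TPN against starvation from left to right; blue marks apical and purple basolateral genes, and filled points have an adjusted p under 0.05. Only Slc36a1 and Slc43a2 are filled in TPN against sham (-2.01 and -1.61) and only Slc6a20a in starvation against sham (1.10), while 6 of 10 are filled in TPN against starvation.

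Apical and basolateral carriers were then set against each other. The median log2 fold change of the 7 apical genes was -0.76 in TPN against sham, 0.99 in starvation against sham and -1.50 in TPN against starvation. That of the 3 basolateral genes was -0.46, 0.26 and -0.98 in the same comparisons. In TPN against sham 1 of 7 apical and 1 of 3 basolateral genes were called lower, where 5.12% of all genes were. At an unadjusted edgeR p under 0.05 there were 4 and 1, and DESeq2 called 3 and 1. In TPN against starvation 4 of 7 apical and 2 of 3 basolateral genes were called lower, where 3.90% of all genes were. Both the unadjusted edgeR p under 0.05 and DESeq2 gave 6 and 3 there. In starvation against sham edgeR called 1 apical gene and 0 basolateral genes. At an unadjusted edgeR p under 0.05 there were 4 apical genes and 1 basolateral gene. DESeq2 called 3 apical genes and 1 basolateral gene, Slc7a8. With 3 basolateral genes, which were chosen with earlier results known, these medians are a description and were not tested against each other.

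Within each library, the mean log2 CPM of the apical genes minus that of the basolateral genes was -1.13, -1.37 and -1.23 in TPN, -1.07, -1.08 and -0.88 in starvation and -1.11, -1.29 and -1.40 in sham. The difference averaged -1.24 ± 0.121 in TPN, -1.01 ± 0.113 in starvation and -1.27 ± 0.146 in sham (SD, n = 3 each). These CPM were not divided by exon length. The difference can thus be compared between libraries, but its sign does not tell which side was higher. TPN and sham overlapped. The gap between the sides was smaller in all 3 starvation libraries than in the other 6, of which the nearest was a sham library at -1.11. The means of the TPN and sham groups differed by less than the spread between replicates.

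In summed CPM per kb, the apical genes made up 66.3%, 61.8% and 64.9% of the 10 carriers in TPN, 69.7%, 70.8% and 79.3% in starvation and 69.0%, 72.2% and 64.5% in sham. Starvation replicate 3 was highest, and the sham libraries overlapped with both other groups. Slc6a19 on its own made up 21.5% ± 1.66 of the sum in TPN, 32.5% ± 7.16 in starvation and 26.2% ± 3.22 in sham (SD, n = 3 each).

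The proteins that carriers depend on were counted from a list of 9 partner genes, of which 8 were tested, including the heavy chain Slc3a2 described above. In TPN against sham 1 of 8 was lower, where 5.12% of all genes were. In TPN against starvation 2 were lower, where 3.90% of all genes were. In starvation against sham edgeR called 0, where 1 had an unadjusted p under 0.05 and DESeq2 called 0. Slc9a3r1 encodes NHERF1, a scaffold that ties membrane proteins of the brush border to the cytoskeleton. It had 580.5, 504 and 527 CPM in the TPN libraries, 1276, 1582 and 2906 CPM in the starvation libraries and 1682, 1915 and 1813 CPM in the sham libraries. The TPN libraries lay far below the rest. In the edgeR test it was 3.36-fold lower in TPN than in sham (log2 fold change -1.75 ± 0.29, adjusted p 0.00962) and 3.58-fold lower in TPN than in starvation (-1.84 ± 0.29, adjusted p 0.0104). Atp1b1, the beta subunit of the sodium pump that maintains the sodium gradient, was lower in TPN than in starvation (-0.95 ± 0.23, adjusted p 0.0429).

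The proton gradient used by PEPT1 and PAT1 is maintained by the sodium and proton exchanger NHE3, gene Slc9a3. It had 195, 175 and 186 CPM in the TPN libraries, 166, 161 and 234 CPM in the starvation libraries and 265, 164 and 238 CPM in the sham libraries. The groups overlapped throughout, with edgeR log2 fold changes of -0.27 ± 0.22 in TPN against sham, -0.25 ± 0.22 in starvation against sham and -0.02 ± 0.22 in TPN against starvation, and with 0.461 as the lowest adjusted p. The scaffold genes Pdzk1 and Slc9a3r2 were not called by edgeR in any comparison. Pdzk1 lay lowest in TPN, with no overlap, at -0.72 ± 0.20 in TPN against starvation (edgeR adjusted p 0.0713), where DESeq2 called it with an adjusted p of 0.0181. Cltrn, which encodes collectrin, the kidney partner of B0AT1, was at 0.577 CPM or less in every library and was not tested.

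**Figure D4:**
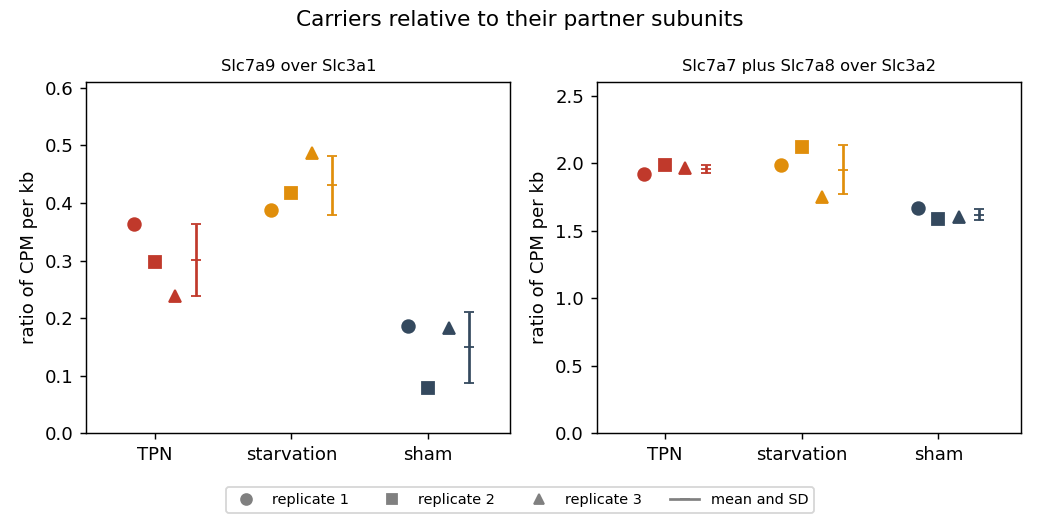
Ratio of a carrier to its partner subunit in each library, from CPM per kb, with TPN, starvation and sham from left to right; shapes give the replicate number and bars the mean and SD of 3 libraries. Sham is lowest both for Slc7a9 over Slc3a1 (0.0778 to 0.187) and for Slc7a7 plus Slc7a8 over Slc3a2 (1.59 to 1.66).

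A list of 49 other carriers of amino acids and peptides was counted for comparison, of which 37 were tested. In TPN against sham 4 rose and 1 fell, where 3.48% of all genes rose and 5.12% fell. The median log2 fold change of the 37 was 0.34, against -0.02 for all genes, and was above 0 where that of the 10 intestinal carriers was below. The 4 were Slc6a7 (log2 fold change 2.11 ± 0.37, edgeR adjusted p 0.0113), Slc15a2 (1.87 ± 0.32, edgeR adjusted p 0.0101), Slc38a2 (0.91 ± 0.22, edgeR adjusted p 0.0376) and Slc38a9 (0.73 ± 0.17, edgeR adjusted p 0.0364). Slc15a2 encodes PEPT2, the high-affinity relative of PEPT1 best known from kidney. It had 8.49, 10.5 and 13.2 CPM in the TPN libraries, 2.87, 2.43 and 2.55 CPM in the starvation libraries and 3.73, 1.92 and 3.08 CPM in the sham libraries. TPN was thus highest for PEPT2 and lowest for PEPT1, at a level of PEPT2 of 1.46 ± 0.322 CPM per kb in TPN beside 34.9 ± 5.20 CPM per kb of PEPT1. Slc38a2 encodes SNAT2, a sodium-coupled carrier of small neutral amino acids that many cells induce when amino acids are scarce. It had 127, 151 and 140.3 CPM in TPN, 104, 102 and 58.0 CPM in starvation and 83.0, 63.8 and 75.3 CPM in sham. The TPN libraries were above all others, and starvation and sham overlapped. The gene that fell in TPN against sham was Slc6a20b, the neighbour of Slc6a20a, at -0.49 ± 0.12 (edgeR adjusted p 0.0422).

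In starvation against sham the 37 other carriers had a median of 0.00. Of them 4 rose and 0 fell, where 2.55% of all genes rose and 1.14% fell. Besides Slc7a15 they were Slc6a7 (2.74 ± 0.37, edgeR adjusted p 0.0105), Slc38a9 (1.24 ± 0.17, edgeR adjusted p 0.0105) and Slc6a18 (3.59 ± 0.81, edgeR adjusted p 0.0453), a relative of Slc6a19 best known from kidney, which had 1.84, 2.96 and 9.83 CPM in the starvation libraries and 0.196, 0.854 and 0.167 CPM in the sham libraries. The fit restricted to starvation and sham called fewer than 4 genes over the whole table. Not all of these 4 calls were thus made in it. DESeq2 called 7 of the 37 higher and 0 lower. Slc38a9 encodes a lysosomal carrier that reports arginine to the mTORC1 kinase. It had 12.9, 12 and 13.9 CPM in the TPN libraries, 18.1, 19.8 and 17.4 CPM in the starvation libraries and 7.56, 8.32 and 7.50 CPM in the sham libraries. The 3 groups did not overlap, with sham lowest. Slc6a7, a proline carrier known from brain, was low everywhere, at 7.18 ± 1.23 CPM in TPN, 11.1 ± 1.27 CPM in starvation and 1.65 ± 0.888 CPM in sham (SD, n = 3 each). In TPN against starvation 1 rose, Slc15a2 (2.03 ± 0.32, edgeR adjusted p 0.0104), and 2 fell, Slc7a15 and Slc16a10. Of all genes, 1.94% rose and 3.90% fell. Slc16a10 encodes TAT1, a basolateral facilitator of aromatic amino acids, and gave -1.0 ± 0.22 (edgeR adjusted p 0.0328), with a median of 0.19 over the 37.

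Genes that work beside the carriers in digestion and absorption were counted in the same way. Of all genes, 5.12% were called lower in TPN against sham and 3.90% in TPN against starvation. In starvation against sham 3.69% were called in either direction. Of 16 peptidases 15 were tested, and 5 were lower and 0 higher in TPN against sham (median -0.83), 0 were called in starvation against sham by edgeR (median 0.47, 2 at an unadjusted p under 0.05, 0 by DESeq2), and 8 were lower and 0 higher in TPN against starvation (median -1.26). Those that fell in both included Anpep, aminopeptidase N (-1.66 ± 0.28 in TPN against sham, edgeR adjusted p 0.00952), and Xpnpep2, an aminopeptidase that removes residues before proline (-1.89 ± 0.28, edgeR adjusted p 0.00559). All 7 hexose carriers were tested, with 5 lower in TPN against sham (median -1.84), 0 called in starvation against sham by edgeR (median 0.73, 4 at an unadjusted p under 0.05, 1 by DESeq2) and 5 lower in TPN against starvation (median -1.82). Slc2a5, the fructose carrier GLUT5, gave -1.84 ± 0.23 in TPN against sham (edgeR adjusted p 0.00294), beside -2.01 for Slc36a1. No test was made of whether the carriers differed from these lists.

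The profiles most like those of the remaining carriers, by Pearson correlation of log2 CPM over 9 libraries and with the limits stated for Slc36a1, were as follows. Slc15a1 was most like Rab24 (0.99), the brush border peptidase Dpp4 (0.988) and Tef (0.987). Slc6a19 was most like Galns (0.996), Dgka (0.989) and Cyth1 (0.987). Slc6a20a was most like Slc2a9 (0.979), Gal3st1 (0.979) and Slc5a11 (0.976), and Slc7a9 was most like Osbpl6 (0.989), Vwa8 (0.986) and Slc12a7 (0.984). Slc7a8 was most like Stk11ip (0.983), Tatdn3 (0.983) and Slc2a9 (0.977), so that Slc2a9, a urate carrier, was among the 3 nearest genes of both Slc6a20a and Slc7a8.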

How the data were processed

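Raw counts per gene for 9 libraries of mouse jejunum were used as the authors deposited them, 3 libraries each for TPN, starvation and sham. The deposited count table names genes by symbol. The labels gave each library its group and replicate number. Per the submitters' processing notes, the tools included STAR 2.7.2e, featureCounts 2.0.0, cutadapt 2.9, DESeq2 1.32.0 and FastQC 0.11.8, with the builds GRCm38 and mm10. Annotation release, strand setting and the handling of multimapping reads were not stated. A further 9 columns of the table matched no sample and were used in no step. One read was worth 0.0828 to 0.129 CPM before TMM scaling. Without molecular identifiers, reads are not independent molecules.

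Genes were filtered with filterByExpr (14668 kept, 7200 removed), scaled by TMM, and fitted over all 9 libraries with a mean per group, 6 residual degrees of freedom and the quasi-likelihood test of edgeR 4.0.16 in R 4.3.3. P-values were adjusted by Benjamini-Hochberg over all 14668 genes, and calls needed an adjusted p under 0.05. The standard error is the size of the log2 fold change divided by the square root of F. CPM per kb divides TMM-scaled CPM by the exon length in GENCODE M21. The same kind of fit was checked on simulated counts. Their spread between replicates was set below that of these data (common dispersion 0.0987), and they held no outlying library. The check therefore does not tell how well calls are made here. Alternatives were DESeq2 1.42.0, other scalings and filters, libraries left out, a covariate for smooth muscle, a block for replicate number, and fits restricted to each pair of groups.

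The 10 carriers, the side of the cell given to each and the gene lists were chosen with earlier results of these data known. All 10 carriers are named, and partners except some that are not reported here, other carriers where they passed the test in at least 1 comparison, peptidases and hexose carriers only as examples that passed it beside a carrier, and for each carrier the 3 genes of most similar profile. The subunit ratios were added as descriptions.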

Additional observations from a re-analysis of the deposited data

How the results depend on the processing

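Direction and call were kept in 480 of 570 values of single carriers under 19 alternatives; 41 gained a call, 29 lost one and 20 changed sign, none of which was called in the main analysis. Genes called in TPN against sham numbered 1261, against 2774 with only the groups compared, 509 with the smooth muscle covariate, 2421 with DESeq2 and 4425 without sham replicate 2 and starvation replicate 3; carriers called were 2, against 5 with only the groups compared, 4 with pan-epithelial scaling, 4 with DESeq2 and 7 without these libraries. In starvation against sham the genes were 541, against 353 with library totals, 2313 with pan-epithelial scaling, 2 with only the groups compared, 229 with the covariate, 1654 with DESeq2 and 2949 without both libraries; carriers were 1, against 8 with pan-epithelial scaling, 4 with DESeq2, 4 without both libraries, and 0 with only the groups compared and with the covariate. In TPN against starvation the genes were 857, against 2266 with pan-epithelial scaling, 545 with only the groups compared, 1791 with DESeq2 and 3205 without both libraries; the carriers, 6, stayed between 4 and 9 in alternatives that kept every library. Leaving out each library in turn gave 216 to 3182 genes and 2 to 5 carriers in TPN against sham, 32 to 1739 genes and 0 to 2 carriers in starvation against sham, and 124 to 1248 genes and 2 to 9 carriers in TPN against starvation. The cause of these moves was not tested.

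Same-numbered libraries did not pair (correlations of their deviations from -0.30 to 0.378, 2 of 9 above 0.1). With the replicate number as a block, 556, 71 and 386 genes and 2, 0 and 4 carriers were called in the order of comparisons above, with the calls of Slc6a20a in starvation against sham and of Slc15a1 and Slc7a8 in TPN against starvation lost, and Slc3a1 in starvation against sham was -0.0074.

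The changes of sign in TPN against sham were Slc1a1 and Slc7a8 at 0.04 with library totals, Slc7a9 at -0.14 with the covariate, Slc1a1 at 0.14 without sham replicate 1, Slc7a9 at -0.02 without sham replicate 2, and Slc1a1 at 0.02 and Slc7a8 at 0.06 without sham replicate 3; leaving out each library gave -0.02 to 0.47 for Slc7a9, -0.47 to 0.14 for Slc1a1 and -0.28 to 0.06 for Slc7a8. In starvation against sham, Slc1a1 was at 0.08 with library totals, 0.48 with pan-epithelial scaling, 0.24 without sham replicate 1, 0.13 without sham replicate 3 and 0.28 without starvation replicate 3. Without starvation replicate 3, Slc3a1 was at -0.34 and Slc7a7 at -0.03; leaving out each library gave -0.34 to 0.28 for Slc3a1, -0.43 to 0.28 for Slc1a1 and -0.03 to 0.44 for Slc7a7. Without both libraries, Slc36a1 was at -0.05, Slc3a1 at -0.28, Slc43a2 at -0.08 and Slc7a7 at -0.04. In TPN against starvation, Slc1a1 was at 0.30 without starvation replicate 1, in a range from -0.38. Library totals moved the median of all genes by 0.19 in TPN against sham, where 46.8% of calls were then lower against 59.6%, and by 0.14 in TPN against starvation; pan-epithelial scaling moved it by -0.29 there, with 95.6% of calls lower against 66.7%, and by 0.38 in starvation against sham, with 3.11% of calls lower against 30.9%. Relative to all genes, the carriers' median stayed at -0.59, 0.56 to 0.62 and -1.40 to -1.31 in the 3 comparisons under every scaling tried. A change of scaling shifts all genes nearly alike, so these values could hardly have moved and do not tell how stable the result is. The gap between apical and basolateral levels moved by less than the spread between replicates in every alternative tried. It is taken within each library, so changes of scaling nearly cancel from it. Leaving out 1 of 3 libraries cannot move a mean by a full SD. This result therefore does not tell how stable the gap is. With 3 libraries a group, a change of about 1 log2 unit was often not detectable.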
